A study of Rattus norvegicus with 32 samples.

Results

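A set of 10 genes of the choroid plexus epithelium, Ttr, Kl, Folr1, Clic6, Aqp1, Otx2, Kcne2, Kcnj13, Slc4a5 and Sostdc1, was followed through RNA sequencing of the rat hippocampus. They were taken by gene name, as 10 of the 32883 gene rows of the count table, and 9 of them were among the 15439 genes with enough counts to be tested. Their levels differed between libraries of the same group far more than those of most genes, most of all in the iron-sufficient groups, and they went up and down together.

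The choroid plexus is a sheet of secretory epithelium around a vascular core inside the brain ventricles. It makes cerebrospinal fluid, forms the barrier between blood and that fluid, and delivers carrier proteins, vitamins and hormones to the brain. It is attached along the choroidal fissure, beside the hippocampus, but is not part of it.

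The 32 libraries each came from 1 hippocampus of a wild-type rat pup, and the groups were defined by the diet of the dam and by treatment. In iron deficiency (ID) the dam ate a purified diet with 3 to 6 ppm iron from gestational day 3 to postnatal day 7, and pups of the iron-sufficient (IS) groups did not have this diet. In the insulin groups the pups received insulin through the nose from postnatal day 8 to 21, and the control groups are labelled only as controls. There were 8 IS control, 9 ID control, 7 IS insulin and 8 ID insulin libraries, with 19619345 to 28062630 counts each. Pups were killed on postnatal day 7 or 21 without a day given for each, and insulin began after the earlier day, so for the control groups age is not settled. Litters are not named, and a p-value here reflects only how these pups varied. The first number in the sample titles is 71 for IS control, 72 for IS insulin, 73 for ID insulin, and 69 or 70 for ID control. What that number stands for is not stated, and its part in a group difference cannot be told apart from diet and treatment. A list of 11 markers of hippocampal neurons had a summed level of 1652 to 2420 CPM in every library (CPM, counts scaled by the TMM-adjusted library total). Camk2a alone gave 965 to 1392 CPM of it, so the sum rests largely on 1 gene and does not test the identity of the tissue.

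Promoter sequences were looked up because the genes moved together. RefSeq windows on GRCr8, holding the 250 bases before the annotated start, were found for 5 of the 10 genes, Ttr, Kl, Aqp1, Kcnj13 and Slc4a5. Windows of Folr1, Clic6, Otx2, Kcne2 and Sostdc1 are not used here. The motif TATAAA, searched on both strands, was in 2 of the 5 windows and in 12.9% of 33469 windows of that length. The motif TAATCC, of the type that OTX factors bind, was in 0 of the 5 and in 6.34% of all windows. These letters describe the windows and are not evidence of a site. The Aqp1 window is chr4:85812534-85812783 on the plus strand, and the Kcnj13 window is chr9:95518987-95519236 on the minus strand. Both are shown 5′ to 3′, with TATAAA in capitals, since they are the windows that hold it; it begins 30 bases before the start in Aqp1 and 46 in Kcnj13.
Aqp1: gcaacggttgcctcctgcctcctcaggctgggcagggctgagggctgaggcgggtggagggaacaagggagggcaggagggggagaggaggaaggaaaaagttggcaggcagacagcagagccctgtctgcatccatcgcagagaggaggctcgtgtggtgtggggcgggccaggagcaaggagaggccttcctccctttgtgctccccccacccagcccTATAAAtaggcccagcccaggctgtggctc
Kcnj13: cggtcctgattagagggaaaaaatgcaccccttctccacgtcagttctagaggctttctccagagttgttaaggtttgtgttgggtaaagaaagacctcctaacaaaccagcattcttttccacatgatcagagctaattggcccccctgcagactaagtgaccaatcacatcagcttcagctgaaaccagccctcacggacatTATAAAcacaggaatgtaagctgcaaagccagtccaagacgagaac

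Ttr encodes transthyretin, the carrier of thyroid hormone and, with Rbp4, of retinol, and is the classic product of this epithelium. In IS control its level was 17.1, 3024, 2857, 247, 2373, 317, 8.38 and 14.0 CPM in replicates 1 to 8. In ID control it was 5102, 4259, 1074, 4168, 1245, 3078, 2252, 1505 and 1476 CPM in replicates 1 to 9. ID control held no library under 500 CPM, whereas 5 of the 8 IS control libraries were under 500 CPM. In IS insulin it was 4010, 3870, 55.8, 3483, 17.8, 938 and 19.2 CPM in replicates 1 to 7. In ID insulin it was 1804, 3791, 5561, 2487, 3570, 3876, 277 and 2332 CPM in replicates 1 to 8. All 4 groups overlapped, and the highest library held 663 times the level of the lowest. Ttr alone was 0.000839% to 0.551% of all counts. In tissue RNA, fewer cells of a type and less RNA per cell cannot be told apart.

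With borders set at 500 and 100 CPM of Ttr after the levels had been seen, 23 libraries lay above 500 CPM, 3 between and 6 below 100 CPM. Above 500 CPM were 3 IS control, 9 ID control, 4 IS insulin and 7 ID insulin libraries. The 6 lowest were IS control replicates 1, 7 and 8 and IS insulin replicates 3, 5 and 7. The 3 between were IS control replicates 4 and 6 and ID insulin replicate 7. Sequencing depth did not separate these sets: total counts were 19810449 to 28062630 above 500 CPM and 20970625 to 26617562 below 100 CPM. The hippocampal neuron markers summed to a median of 2072 CPM above 500 CPM and 2108 CPM below 100 CPM.

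**Figure D1:**
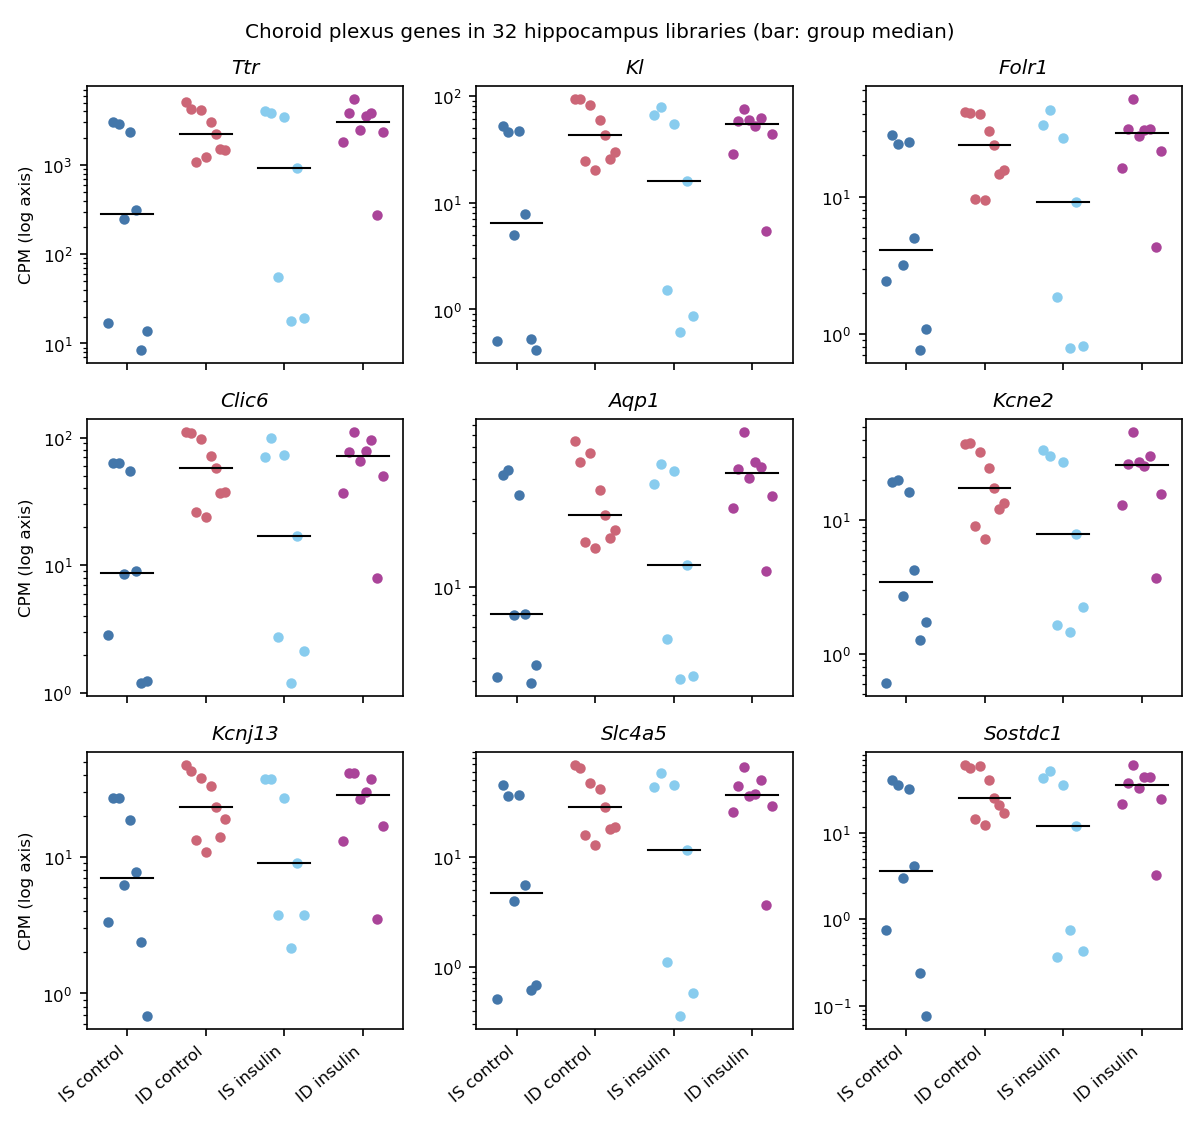
Level of 9 choroid plexus genes in each of 32 libraries, by group, in CPM on a log axis; points are libraries and bars are group medians. IS control and IS insulin each spread over high and very low libraries, while ID control has no very low one and ID insulin has 1 library apart.

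Kl encodes klotho, a co-receptor for FGF23 whose shed form enters the cerebrospinal fluid, and its lowest, median and highest levels were 0.415, 6.41 and 52.5 CPM in IS control and 20.0, 43.1 and 94.0 CPM in ID control. They were 0.621, 15.8 and 79.2 CPM in IS insulin and 5.46, 54.7 and 74.5 CPM in ID insulin. Sostdc1, a secreted antagonist of BMP and Wnt signals, reached 0.0754, 3.57 and 40.8 CPM in IS control and 12.3, 24.9 and 60.1 CPM in ID control. The lowest of these, IS control replicate 8, rests on 2 reads. In IS insulin Sostdc1 was 0.370, 12.0 and 52.2 CPM and in ID insulin 3.26, 35.4 and 61.2 CPM. For both secreted products the groups overlapped.

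Folr1 encodes the folate receptor that carries folate across this epithelium. Its lowest, median and highest levels were 0.762, 4.08 and 28.2 CPM in IS control, 9.39, 23.7 and 41.4 CPM in ID control, 0.798, 9.15 and 42.7 CPM in IS insulin and 4.28, 29.1 and 51.7 CPM in ID insulin. Slc4a5, a sodium bicarbonate cotransporter of the epithelium, was 0.512, 4.76 and 45.8 CPM in IS control and 12.8, 28.8 and 69.4 CPM in ID control. It was 0.355, 11.6 and 57.8 CPM in IS insulin and 3.67, 36.8 and 65.9 CPM in ID insulin. Both genes had their 6 lowest values in the same 6 libraries as Ttr.

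Aqp1 is the water channel of the epithelium, and it had the narrowest range of log2 CPM among the 9 genes tested. Its lowest, median and highest levels were 2.91, 7.04 and 45.2 CPM in IS control, 16.5, 25.2 and 65.1 CPM in ID control, 3.06, 13.2 and 48.7 CPM in IS insulin and 12.3, 43.1 and 73.4 CPM in ID insulin. Clic6, a member of the chloride intracellular channel family, was 1.19, 8.78 and 63.6 CPM in IS control and 24.1, 57.5 and 111 CPM in ID control. It was 1.20, 16.9 and 98.8 CPM in IS insulin and 7.94, 71.5 and 111 CPM in ID insulin. Aqp1 kept a level of 2.91 to 5.13 CPM in the 6 libraries with the least Ttr, and Clic6 of 1.19 to 2.84 CPM.

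Kcne2 is a potassium channel beta subunit, and Kcnj13 is the inward rectifier Kir7.1 of the apical membrane. Kcne2 was 0.605, 3.47 and 19.9 CPM (lowest, median and highest) in IS control, 7.20, 17.5 and 38.1 CPM in ID control, 1.46, 7.85 and 33.6 CPM in IS insulin and 3.71, 25.9 and 46.1 CPM in ID insulin. Kcnj13 was 0.679, 7.02 and 27.2 CPM in IS control, 11.0, 23.5 and 47.7 CPM in ID control, 2.17, 9.12 and 37.6 CPM in IS insulin and 3.50, 28.5 and 41.8 CPM in ID insulin. Neither channel gene separated the groups.

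Otx2, a transcription factor that choroid plexus cells need in order to form, had 3 reads in the 32 libraries together and none in 29 of them. Alone, 3 reads in 1 library, the limit that a count of 0 allows, would be 0.108 to 0.152 CPM, so its absence is not shown and no fold is given. It did not enter the tests.

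The same 9 libraries held the 9 lowest levels of every one of the 9 genes tested. The 6 libraries lowest for Ttr were also the 6 lowest for the others, except that Kcnj13 shared 5 of them. The within-group SD of log2 CPM (prior count 2), pooled over the groups, had a median of 1.89 over the 9 genes and 0.171 over all 15439 genes tested. By that SD, Ttr ranked 11 with 2.60, Sostdc1 16, Kl 18, Slc4a5 21, Clic6 28, Folr1 52, Kcne2 76, Kcnj13 99 and Aqp1 140, so that 8 of 9 were among the top 100. The Y-linked genes Eif2s3y and Kdm5d had larger SDs, 4.91 and 4.62, and sex was not a term in the main fit. The pooled SD hides a difference between groups. For Ttr the SD was 3.61 in IS control and 3.66 in IS insulin, but 0.851 in ID control and 1.34 in ID insulin. All 9 genes had larger SDs in both IS groups than in either ID group. The edgeR fit used 1 estimate of spread per gene for all groups.

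**Figure D2:**
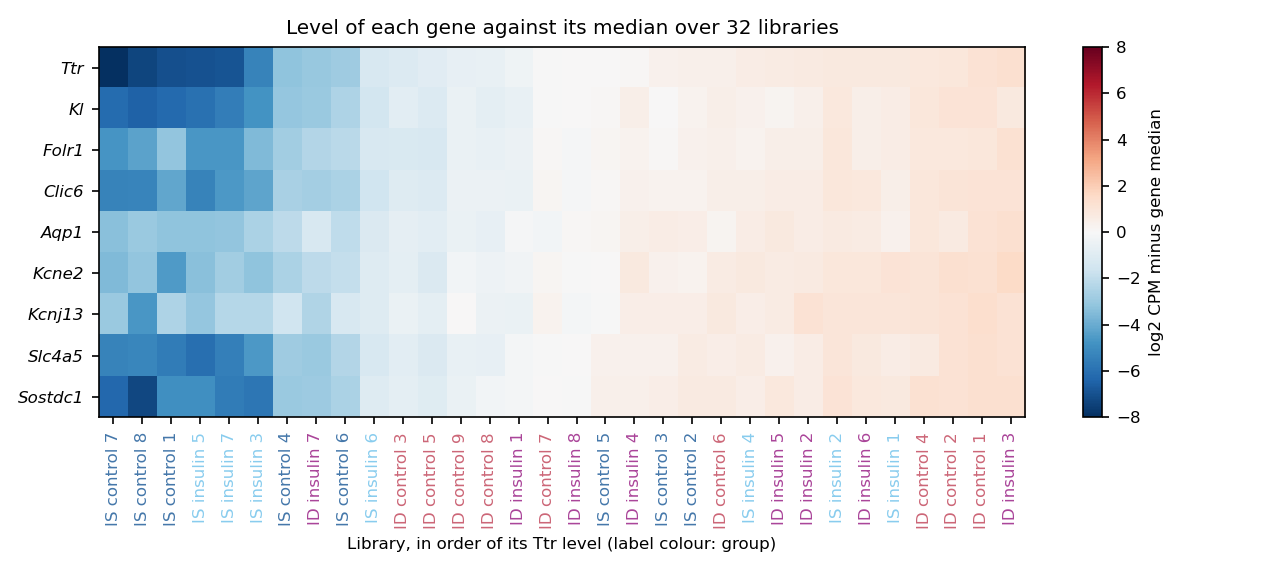
Log2 CPM of each gene minus its median over 32 libraries, with libraries in order of Ttr level and label colours giving the group. The 9 rows darken together in the 9 leftmost libraries, which hold the lowest level of every gene.

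Because the libraries fell apart by level, no correlation over all 32 is given for pairs of genes. Among the 23 libraries above 500 CPM of Ttr, Pearson's r of log2 CPM over the 36 pairs of genes ran from 0.909 for Aqp1 with Kcnj13 to 0.980 for Folr1 with Clic6, with a median of 0.963. Spearman's rho ran from 0.876 to 0.977. Every pair had a Benjamini-Hochberg adjusted permutation p of 1e-05, the smallest that 100000 resamples can give, and without the 2 libraries farthest from the median r was 0.858 to 0.975. With each value centred on its group mean, the median r was 0.972. The covariation was therefore also present within the groups. In ID control alone, 9 libraries that all lay above 500 CPM, r was 0.953 to 0.997. The 6 libraries below 100 CPM gave r from -0.631 to 0.872 with a median of 0.409, and 0 of 36 pairs passed an exact permutation test after adjustment (lowest adjusted p 0.533). Counts there were small, such as 2 to 17 reads of Sostdc1 and 11 to 33 of Kl.

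The proportions of the genes to each other varied little in the 23 libraries. Per 1000 Ttr reads, Kl had 13.4 to 23.9 reads (median 17.4), Clic6 17.7 to 26.3 (median 22.1) and Aqp1 9.34 to 16.6 (median 13.2). The coefficient of variation over these libraries was 11.2% for Clic6 and for Sostdc1, 11.3% for Folr1, 12.0% for Slc4a5, 12.9% for Aqp1, 14.0% for Kcne2, 14.9% for Kl and 15.7% for Kcnj13. Counting error alone gives 2.51% for Clic6 and 4.20% for Kcne2 at their median counts. In the 6 libraries with the least Ttr the median proportions were higher and unequal: the median per 1000 Ttr reads was 159 for Kcnj13 (9.38 in the 23), 178 for Aqp1 (13.2), 100.2 for Kcne2 (7.79), 61.6 for Folr1 (9.30) and 25.5 for Sostdc1 (12.2). Single libraries did not all follow: Sostdc1, with 2 to 17 reads, ranged from 5.41 to 43.5 there and from 9.86 to 14.1 in the 23. Since the libraries were chosen by their Ttr level, these ratios are a description.

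**Figure D3:**
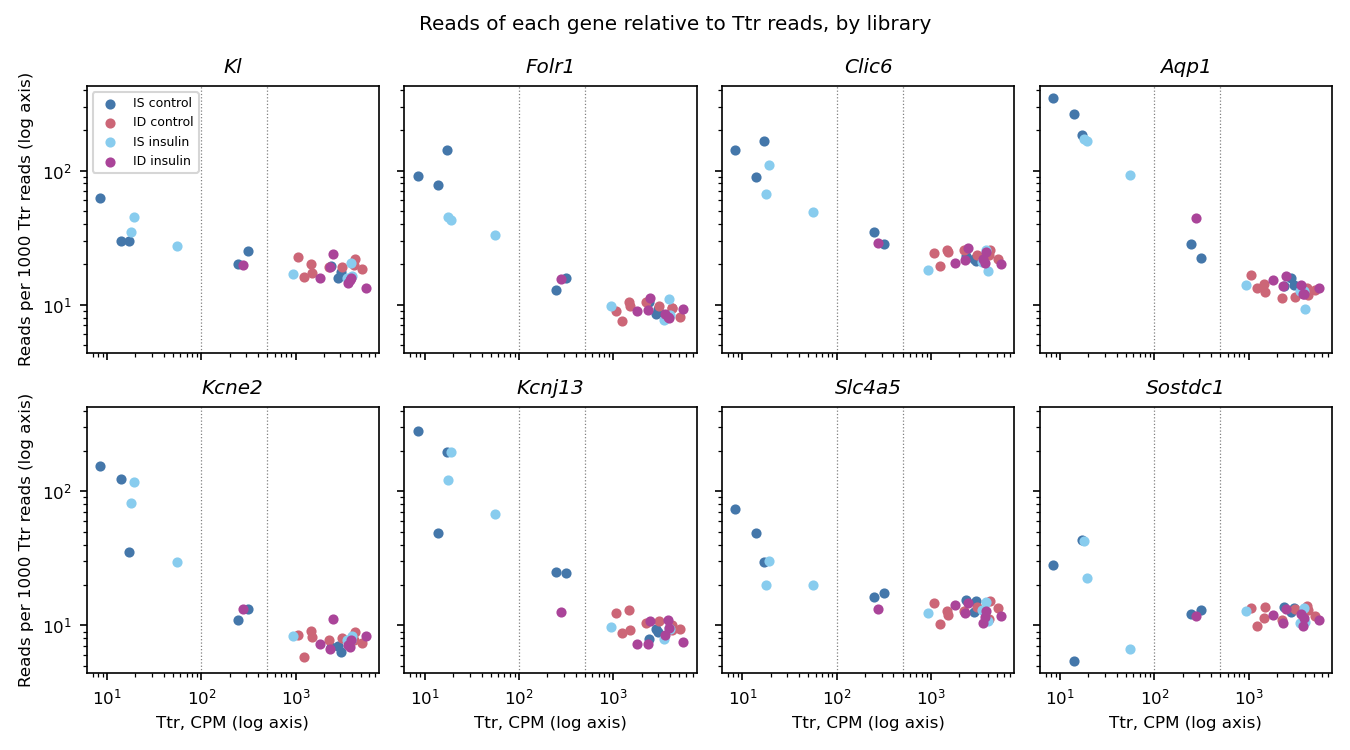
Reads of each gene per 1000 Ttr reads against the Ttr level in CPM, both on log axes, 1 point per library; dotted lines mark 100 and 500 CPM. Points to the right of 500 CPM lie in a narrow band, and Kcnj13 and Aqp1 rise most to the left, with medians of 159 and 178.

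The effect of diet was compared first between the controls. Since the 9 genes moved together, counts out of 9 here and below are not counts of separate events. All 9 genes had higher fitted means in ID control than in IS control, by a log2 fold change of 0.90 (Aqp1) to 1.39 (Kl) with a median of 1.20, against 0.0051 over all genes tested. None of the 9 passed edgeR's quasi-likelihood test after Benjamini-Hochberg adjustment (adjusted p 0.328 to 0.616), where 0.291% of all genes did. At an unadjusted p under 0.05 there were 2 of the 9, Kcne2 and Kcnj13, and 11.9% of all genes. For Ttr the log2 fold change was 1.28 (SE 0.91), with a 95% interval of -0.60 to 3.15, which includes 0. With limma voom and quality weights, an alternative test on mean log values, the median of the 9 was 2.54 in this comparison and 2.51 in the next. Between the insulin groups, ID exceeded IS by 0.61 to 0.88 on the log2 scale with a median of 0.69, and 0 of 9 were called (edgeR adjusted p 0.372 to 0.709) against 2.45% of all genes. That median was 1.10 without IS insulin replicate 2, 0.47 without IS insulin replicate 7 and 0.46 without ID insulin replicates 3 and 5.

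Averaged over treatment, the 9 log2 fold changes of ID over IS were 0.89 to 1.05, with a median of 0.94 against 0.0021 over all genes. Here 0 of 9 were called by edgeR (adjusted p 0.212 to 0.507), against 1.63% of all genes, and 5 of 9 had an unadjusted p under 0.05, against 15% of all genes. The 5 are correlated genes measured in the same libraries, so the 2 shares are not directly comparable. Ttr was 1.01 (SE 0.66), Kcne2 1.00 (SE 0.41) and Clic6 1.05 (SE 0.48). This call depended on the test. DESeq2, which like edgeR compares mean counts, called 0 of 9 here, with 2.71% of all genes called. Limma voom with sample quality weights, which compares mean log values, called 9 of 9 as higher in ID, against 3.36% of all genes called in either direction. Its log2 fold changes were 3.47 (SE 0.85, adjusted p 0.0182) for Ttr, 2.94 (SE 0.66, adjusted p 0.0115) for Kl and 1.62 (SE 0.44, adjusted p 0.0344) for Kcnj13. Limma voom without weights called 3 of 9, Kl, Clic6 and Aqp1, against 1.61% of all genes, and limma on log2 CPM with a trend called 0 of 9 (adjusted p 0.0562 to 0.108) against 1.55%. Limma voom with weights and without ID insulin replicates 3 and 5 called 8 of 9 against 2.47%, missing Kcnj13. These last 3 fits were chosen after the data were seen. The weights were lowest for ID insulin replicate 3 (0.226) and IS insulin replicate 1 (0.467), which both have much Ttr.

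Insulin was compared within each diet. In ID pups, ID insulin against ID control gave log2 fold changes of -0.12 (Kl) to 0.28 (Aqp1) with a median of 0.051, and 0 of 9 were called by edgeR (adjusted p 0.809 to 0.995) against 3.82% of all genes. The 95% interval for Ttr was -1.68 to 1.97. In IS pups the 9 values were 0.29 to 0.84 with a median of 0.55, and 0 of 9 were called (edgeR adjusted p 0.53 to 0.84) against 0.123% of all genes. Averaged over diet the median was 0.28, with 0 of 9 called against 1.26%. The interaction of diet and insulin had a median of -0.52, with 0 of 9 called against 0.939%. Single libraries moved these medians by over 1.5 times. Without IS insulin replicate 2 they were 0.11 for insulin in IS pups, 0.10 averaged over diet and -0.071 for the interaction, and without IS control replicate 2 they were 0.90, 0.47 and -0.89. In ID pups the median was -0.11 without ID insulin replicate 3 and 0.23 without ID insulin replicate 7. In the test for any difference among the 4 groups 0 of 9 were called by edgeR (adjusted p 0.222 to 0.606) against 5.92% of all genes. Limma voom with quality weights called 8 of 9 there, against 11.2%, and 7 of 9 without ID insulin replicates 3 and 5, against 7.97%. In the other 6 comparisons limma voom with quality weights called 0 of 9. The shares of all genes it called were 1.57% for ID control against IS control, 5.05% and 0.181% for insulin in ID and in IS pups, 3.67% for ID insulin against IS insulin, 0.861% for insulin averaged over diet and 3.18% for the interaction. DESeq2 called 0 of 9 in all 8 comparisons, against 0.738%, 5.3%, 1.33%, 4.68%, 3.55% and 2.74% of all genes in those same 6 and 11.4% for any difference. At an unadjusted p under 0.05 in edgeR there were 0 of 9 in each of these insulin comparisons, against 19.5% of all genes in ID pups, 16.3% in IS pups and 18.7% averaged over diet. It was also 0 of 9 in the interaction, in ID insulin against IS insulin and in the test for any difference, against 17.1%, 20.1% and 26.7% of all genes. Comparisons that share a control group are not independent of each other.

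**Figure D4:**
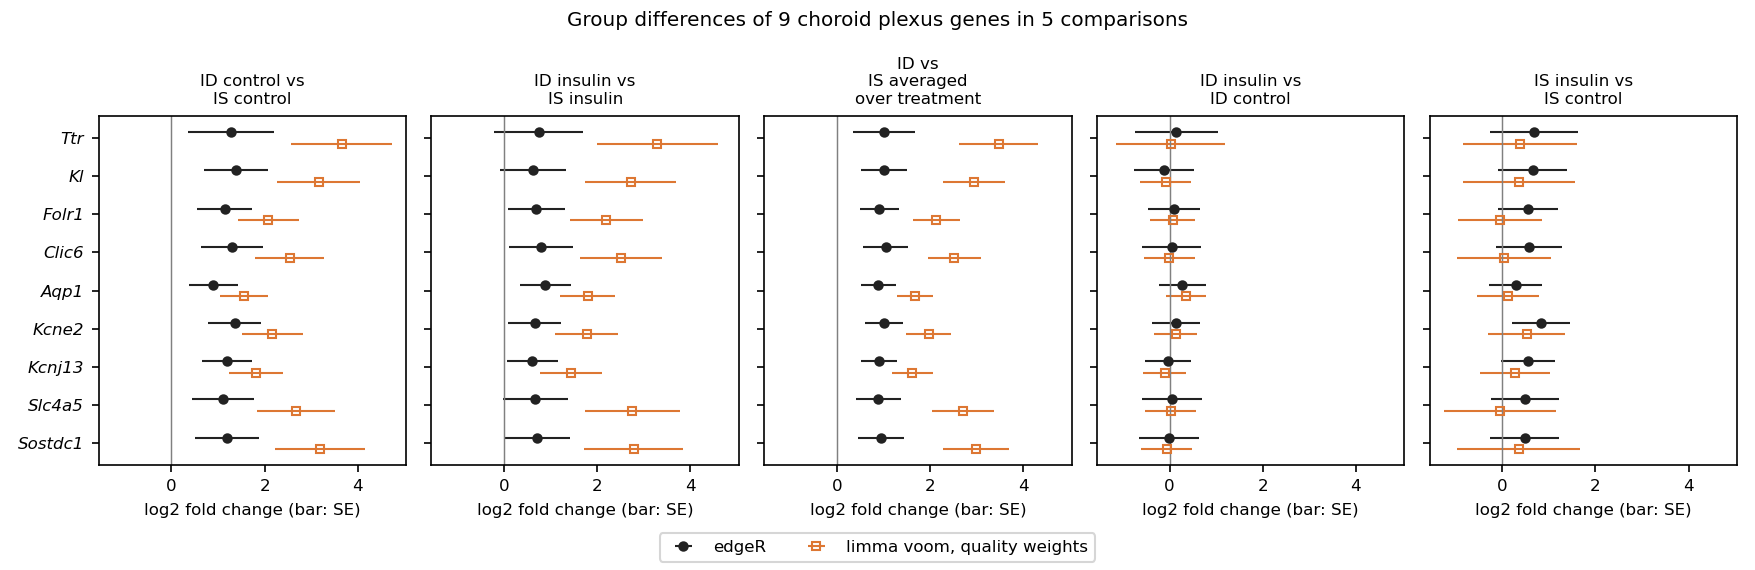
Log2 fold change with its SE for 9 genes in 5 comparisons, by edgeR (filled circles) and limma voom with quality weights (open squares). The estimates of ID over IS lie above 0 with both tools and are larger with limma voom, and those for insulin lie near 0 in ID pups.

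The ID control group holds both of its title numbers, 69 and 70. Ttr was 1074 to 5102 CPM with a median of 4168 in the 5 libraries of number 69, and 1476 to 3078 CPM with a median of 1878 in the 4 of number 70. The levels of the 2 sets overlapped. The Ttr log2 fold change over IS control was 1.51 with number 69 alone as ID control (edgeR adjusted p 0.681) and 0.90 with number 70 alone.

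Genes most like the 9 were ranked by Pearson's r of log2 CPM with the mean of the scaled 9 genes over all 32 libraries, which share the level differences above; these values are a description. The first 10 were Cldn2 (0.994), F5 (0.993), Tmem72 (0.992), Slco1a2 (0.991), Mfrp (0.990), Prr32 (0.985), Col8a1 (0.981), Ace (0.977), Prlr (0.977) and Cltrn (0.973). Cldn2 is a tight junction claudin, F5 is coagulation factor V, Prlr is the prolactin receptor and Ace is the angiotensin-converting enzyme. In the 23 libraries above 500 CPM of Ttr, r was 0.982 for Cldn2, 0.991 for Mfrp and 0.886 for Col8a1. Of 15430 other genes, 59 had r of at least 0.9 over 32 libraries, 255 at least 0.7 and 0 at or below -0.7.

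A further list of 25 choroid plexus genes had 22 tested members, all with r of at least 0.7 over 32 libraries, from 0.716 (Htr2c, a serotonin receptor that neurons express too) to 0.994. Their median log2 fold change was 0.86 between ID control and IS control, with 0 of 22 called by edgeR against 0.291% of all genes. Averaged over treatment, 1 of 22, Igf2, a growth factor also made by meninges, rose in ID by 0.54 on the log2 scale (edgeR adjusted p 0.0466). The share of all genes called there was 1.63%. Without ID insulin replicates 3 and 5, 0 of 22 were called in either comparison, against 0.387% and 1.43% of all genes. Their summed level was 506 to 619 CPM in the 6 libraries with the least Ttr and 864 to 2512 CPM in the 23.

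Other genes of the same physiology were compared by list. Of 10 genes of ion and water transport in cerebrospinal fluid secretion, 1 had r of at least 0.7: Kcnq1, the potassium channel that Kcne2 can join, at 0.896. Atp1b1, a sodium pump subunit that neurons also express, had r of -0.38, and Aqp4, the astrocyte water channel, -0.16. None of the 10 was called by edgeR in any of the 8 comparisons, where 0.123% to 5.92% of all genes were called. At such shares a list of this size can have none called without differing from other genes. Among 9 genes of thyroid hormone and retinol handling, Stra6, the retinol receptor, reached 0.701. Rbp4 alone of these 9 was called in ID insulin against ID control, where 3.82% of all genes were called. It fell by 0.90 on the log2 scale (edgeR adjusted p 0.0144). Among 8 genes of folate handling, Slc19a1, the reduced folate carrier, reached 0.751. Of 9 receptors and ligands of klotho and Sostdc1 signalling, 0 reached 0.7, against 1.71% of all genes. None of these was called by edgeR in the 8 comparisons, against the same 0.123% to 5.92% of all genes.

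**Figure D5:**
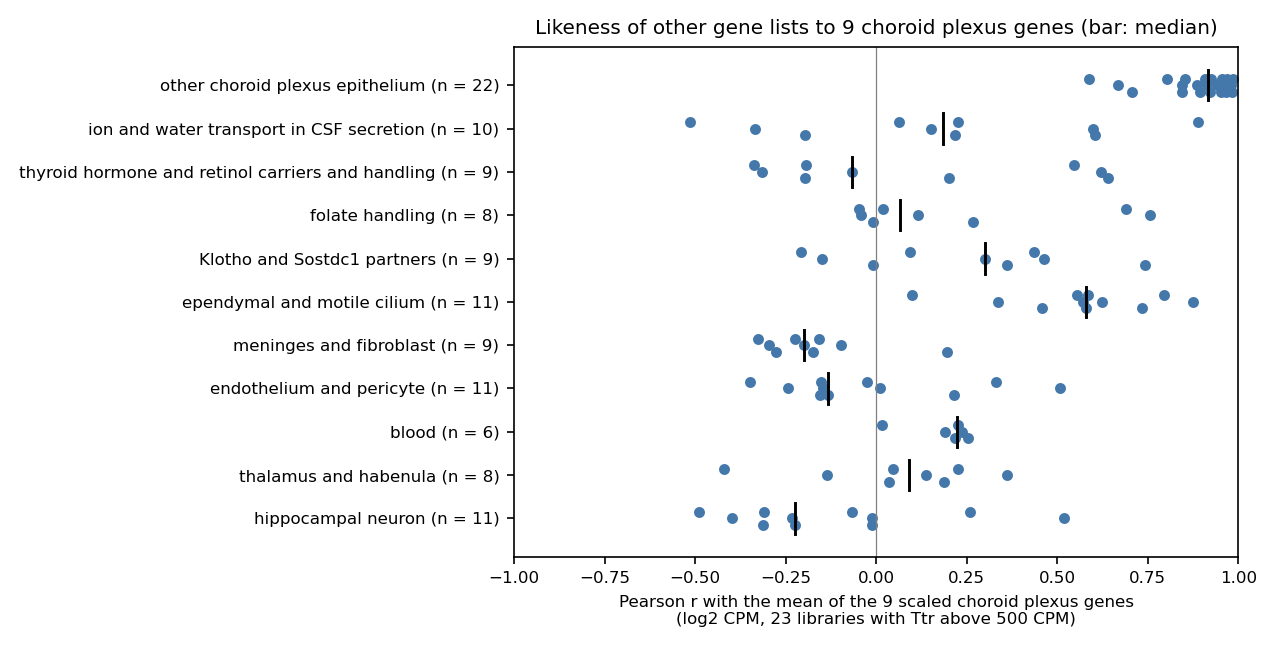
Pearson's r of each listed gene with the mean of 9 scaled choroid plexus genes over the 23 libraries with Ttr above 500 CPM, by list; points are genes and bars are list medians. The other choroid plexus genes stand at the right, ependymal genes next, and the meningeal, endothelial, thyroid hormone and neuronal lists have medians below 0.

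Markers of neighbouring cell types moved with the 9 genes to different degrees. Ependymal and motile cilium genes, from the cells that line the ventricles, had a median r of 0.579 over 11 genes, with Cfap126 at 0.895, Dnah11 at 0.828 and Tekt1 at 0.751. Their summed level was 46.0 to 74.5 CPM in the 6 libraries with the least Ttr and 58.1 to 212 CPM in the 23, where 212 is ID insulin replicate 3 alone and the next highest is 115. By group, the sum ranged over 46.0 to 85.4 CPM (IS control), 58.1 to 115 (ID control), 51.0 to 109 (IS insulin) and 74.8 to 212 (ID insulin). Of these 11, 4 rose in ID insulin against ID control (Dynlrb2 and Tmem212 by 1.03, Ccdc153 by 0.77 and Dnah12 by 0.86 on the log2 scale, edgeR adjusted p 0.0177 to 0.0443), against 3.82% of all genes, where the 9 choroid plexus genes had a median of 0.051. Averaged over treatment, 3 rose in ID, Tekt1 by 0.57, Cfap44 by 0.74 and Dnah11 by 0.70 (edgeR adjusted p 0.0355 to 0.0446), against 1.63% of all genes. Without ID insulin replicates 3 and 5, a fit of these lists chosen after the data were seen, 0 of 11 were called in either comparison. The shares of all genes called were 2.31% and 1.43%.

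Meningeal genes had a median r of 0.105 over 32 libraries and blood genes had r up to 0.368. The highest meningeal value, 0.435 for Col3a1, was -0.20 in the 23 libraries. In ID insulin against ID control, 6 of 9 meningeal genes fell against 3.82% of all genes called, among them Bgn by 0.43, Aldh1a2 by 0.80 and Col1a1 by 0.61 on the log2 scale. There, 4 of 6 blood genes rose, Alas2 by 1.15, Hbb by 1.10, Ahsp by 1.09 and Slc4a1 by 1.30. Without ID insulin replicates 3 and 5, 4 of 9 meningeal genes and 1 of 6 blood genes, Alas2, were called, against 2.31% of all genes. Meningeal markers summed to 279 to 494 CPM in IS control, 326 to 725 in ID control, 253 to 379 in IS insulin and 235 to 391 in ID insulin. Blood markers summed to 773 to 2540, 1062 to 2488, 1282 to 3094 and 1051 to 4613 CPM in the same order. Of 11 endothelial and pericyte genes, 1, Ocln, rose in ID control against IS control, by 0.52 (edgeR adjusted p 0.00610), where 0.291% of all genes were called. In ID insulin against ID control 3 of the 11 fell, against 3.82% of all genes called. These were Vtn by 0.48, Itm2a by 0.28 and Cdh5 by 0.37 on the log2 scale (edgeR adjusted p 0.00254, 0.00889 and 0.0443). Averaged over treatment 2 rose in ID, Ocln by 0.35 and Pdgfrb by 0.24 (edgeR adjusted p 0.00683 and 0.0478), against 1.63% of all genes called. In the interaction 3 were called, against 0.939% of all genes. These were Itm2a at -0.41, Vtn at -0.61 and Slco1a4 at -0.50 on the log2 scale (edgeR adjusted p 0.0236, 0.0236 and 0.0324). Without ID insulin replicates 3 and 5, Ocln and Pdgfrb were called in ID control against IS control (0.387% of all genes) and averaged over treatment (1.43%). Vtn and Itm2a, but not Cdh5, were called in ID insulin against ID control (2.31%), and the same 3 in the interaction (2.8%).

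Markers of thalamus and habenula, with r up to 0.522, summed to 115 to 145, 109 to 168, 112 to 138 and 126 to 494 CPM in the order IS control, ID control, IS insulin and ID insulin. The 494 CPM is ID insulin replicate 5 alone, and the next highest of its group is 163. Of these 8 genes, 3 were called in ID insulin against ID control, against 3.82% of all genes. Patj rose by 0.71, Prkcd rose by 1.28 and Lhx9 fell by 0.71 on the log2 scale (edgeR adjusted p 0.0134, 0.0355 and 0.0321). Without ID insulin replicates 3 and 5, 0 of 8 were called there, against 2.31% of all genes. The part of these cell types in the differences of the 9 genes was not tested.

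Genes called between groups were examined for likeness to the 9. Of the 252 genes called between ID and IS averaged over treatment, 19 (7.54%) had r of at least 0.7, against 1.71% of all genes, and 6 of the 19 also had it in the 23 libraries above 500 CPM of Ttr. They included Igf2, Dsp, a desmosome protein that is on the hippocampal neuron list (log2 fold change 0.80, edgeR adjusted p 0.00265), and Ocln, a tight junction protein. In the 23 libraries these 3 had r of 0.588, 0.518 and 0.509. Of the 45 called between ID control and IS control, 2 did, Serpinb1a and Ocln, and of the 589 called between ID insulin and ID control, 0 did. With the mean of the 9 genes as a covariate, the 252 calls became 49, with 42 in both, and the 45 became 19, with 11 in both. The 589 became 704, with 589 in both, and the 378 between ID insulin and IS insulin became 93, with 88 in both. The level of the 9 genes overlaps with diet in these libraries, and these counts do not separate them.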

How the data were processed

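The submitters' processing notes name Trimmomatic 0.40, FastQC, HISAT2 2.1.0, featureCounts and edgeR; Rnor_6.0 and mm10 are listed as builds without a role, and all gene identifiers are rat ones. The deposited table holds whole-number counts per gene, not normalized. Use of strand and of reads with several matches is not given in the sources used here. For the tests, edgeR 4.0.16 under R 4.3.3 was used, with TMM scaling, filterByExpr by group, 1 coefficient per group over 32 libraries (28 residual degrees of freedom) and two-sided quasi-likelihood tests in 8 comparisons, adjusted over 15439 genes, with calls at an adjusted p under 0.05. Limma 3.58.1 and DESeq2 1.42.0 were alternatives. Libraries of a group were not copies (chi-square per gene of at least 5.84).

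The 10 genes and all lists were chosen with earlier results of these data known. Besides them, the 10 most alike genes and up to 3 called genes per list and comparison were named; Serpinb1a, Dsp and a few list genes named for their likeness were chosen after their values were seen, and lists with 4 called genes have all of them named. Correlations planned over 32 libraries are given within libraries of like Ttr level, since these fell apart. Results of a few list genes are not reported here.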

Additional observations from a re-analysis of the deposited data

Results flagged for a closer look

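ID insulin replicate 7 stood apart at the low end of its group for 7 of the 9 genes. Its gap to the next library, as a share of the group's range in log2 CPM, was 0.624 for Ttr, 0.632 for Kl, 0.531 for Folr1, 0.579 for Clic6, 0.528 for Kcnj13, 0.674 for Slc4a5 and 0.643 for Sostdc1, above the 95% critical value of Dixon for 8 libraries. The share was computed in 36 gene and group combinations. Chance gives such a gap in about 1 of 20 groups, and the 9 genes are correlated, so the 7 are not separate events.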

How the results depend on the processing

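The count of called genes among the 9 stayed at 0 in all 8 comparisons when any 1 library was left out (0 to 0). It also stayed at 0 with DESeq2, DESeq2 size factors, both other count filters and ID insulin replicates 3 and 5 removed. With the mean of the Y-linked genes Eif2s3y, Kdm5d and Ddx3y as a covariate, the count was also 0. For ID over IS averaged over treatment it was 9 with limma voom and quality weights, 3 without weights and 8 with weights and without ID insulin replicates 3 and 5; for any difference among the groups it was 8, and 7 without those libraries. The last 3 kinds of limma fit, without weights, with a trend, and without those libraries, were chosen after the data were seen. The Ttr log2 fold change of ID insulin over ID control (0.14) changed sign to -0.14 without ID insulin replicates 3 and 5, to -0.16 with limma voom and weights without them, to -0.10 with title number 69 alone, and lay between -0.051 (without ID insulin replicate 3) and 0.32 with 1 library left out. Sample titles also hold a second number, which was fitted as a replicate block. It does not pair the libraries: 2 of 32 correlated best with their own number, and the median correlation of deviations was 0.0034 over 40 pairs. This block left 0 of 9 called in every comparison. It raised the median log2 fold change of ID insulin over ID control from 0.051 to 0.90 and turned the Ttr interaction to 0.72. The median r among the 9 genes was 0.963 to 0.972 under other settings, and their median SD 1.86 to 1.95. Genes called in all ranged from 19 to 242 for ID control over IS control, 150 to 819 for ID insulin over ID control, 0 to 206 for IS insulin over IS control, 93 to 723 for ID insulin over IS insulin, 49 to 518 for ID over IS averaged, 96 to 548 for insulin averaged, 9 to 491 for the interaction and 609 to 1755 for any difference. With 1 library left out, the ranges that moved by over 1.5 times were 23 (without IS control replicate 8) to 61, 323 (without ID control replicate 5) to 806, 0 (without IS control replicate 5) to 92, 169 (without IS insulin replicate 2) to 751 (without ID insulin replicate 3), 40 (without IS insulin replicate 1) to 320 and 40 (without IS insulin replicate 2) to 594 (without ID insulin replicate 3), for the first 4 of these comparisons, insulin averaged and the interaction. The cause of these changes was not tested.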
